A study of Mus musculus with 6 samples.

Results

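Complement is a plasma and tissue defence system of proteins that act in a cascade. The 9 genes described here encode its recognition molecule C1q (C1qa, C1qb, C1qc), the protease C1r (C1ra), the components C3 and C4 (C3, C4b), the receptors for the fragments C3a and C5a (C3ar1, C5ar1) and the membrane inhibitor CD59 (Cd59a). They were taken by gene symbol from a deposited table of 53465 genes, in which each symbol had 1 row. Their expression was read from RNA sequencing of mouse tissue labelled as hippocampus of the right side. The animals were male and C57BL/6J by genotype, with no other allele named in the labels. The 3 Sham libraries came from mice labelled Sham, for which no operation is described, and the 3 tMCAO libraries from mice whose middle cerebral artery was closed with a filament for 50 min and then reopened. All animals were perfused with saline before dissection. The sources used here do not give the age of the mice, the time they survived or whether a library is 1 animal. The p-values therefore describe only the spread between libraries, which may be technical.

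In brain, C1q is made mainly by microglia, and C1r and C1s are the proteases that join it to form the C1 complex. C1 cleaves C4 and C2, and the enzyme they form cleaves C3. Fragments of C3 tag cells and synapses for uptake by phagocytes, and the small fragments C3a and C5a signal through receptors carried mostly by myeloid cells. CD59 blocks the last step, the assembly of the membrane attack complex. C4 is also made by astrocytes and oligodendrocytes.

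Before the results, 3 libraries have to be named that stood apart from the others in their group. Sham 2 and tMCAO 3 (tMCAO libraries are numbered by their columns) held more RNA of striatal neurons and less of choroid plexus. The summed level of 5 striatal markers, led by Ppp1r1b, was 256 and 252 FPKM (a level per gene length and library size) in these libraries, and 40.6 to 57.8 FPKM in the other 4. The summed level of 6 choroid plexus markers, led by Ttr and Clic6, was 25.3 and 9.66 FPKM in these libraries against 353 to 730 FPKM in the other 4. tMCAO 1 had 341 FPKM of 5 red blood cell markers against 2.76 to 14.6 FPKM elsewhere, and 33.5 FPKM of 8 neutrophil markers against 2.09 to 5.30 FPKM elsewhere. The 6 genes listed for hippocampal neurons summed to 545 to 770 FPKM in the 6 libraries. Most of this was Snap25 and Slc17a7, which are not confined to hippocampus, so the sum does not show hippocampal neurons in each library. Prox1, a marker of dentate granule cells, was at 2.09 and 1.75 FPKM in Sham 2 and tMCAO 3 and at no less than 5.82 FPKM in the other 4. Reads assigned to genes, estimated from the steps of the FPKM, ran from 40352691 to 47824875 in Sham and from 59924762 to 68394482 in tMCAO. The library sizes that the FPKM imply were smaller than these totals in each library.

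**Figure D1:**
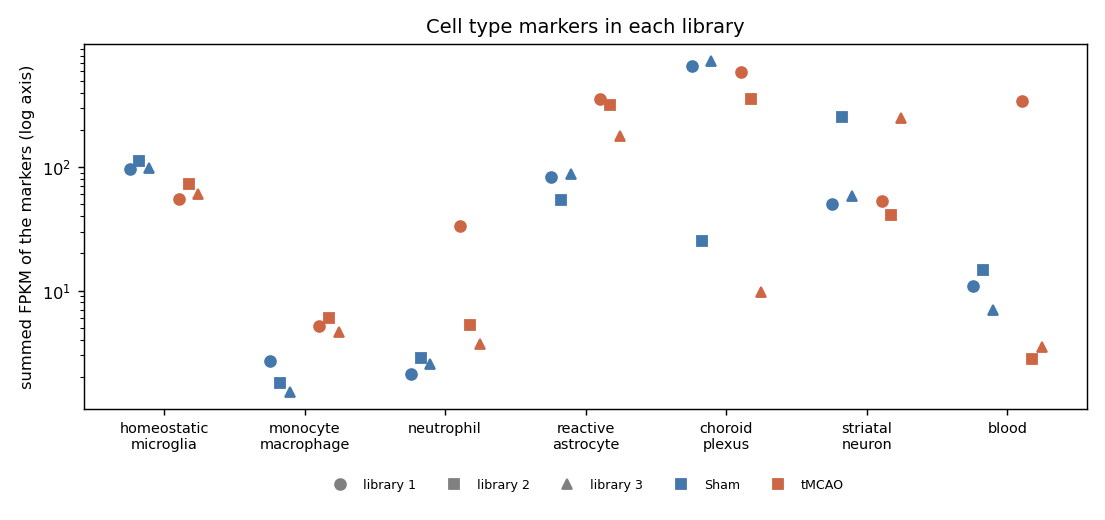
Summed FPKM (log axis) of 7 lists of cell type markers in each library, with Sham in blue and tMCAO in orange and a symbol for each library number, which does not pair libraries across groups. Sham 2 and tMCAO 3 are low in choroid plexus and high in striatal markers, tMCAO 1 is high in blood and neutrophil markers, and the homeostatic microglial sum is lower in every tMCAO library.

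The genes fell into a few loci (GENCODE M21, build GRCm38). C1qb (136880129 to 136886187), C1qc (136889804 to 136893065) and C1qa (136895917 to 136898803) lie side by side on the minus strand of chromosome 4 within 18.7 kb. C1ra lies on chromosome 6 (124512405 to 124523443, plus strand) in a stretch of 123.7 kb with its copy C1rb and the C1s genes, and C3ar1 lies elsewhere on that chromosome (122847138 to 122856161, minus strand). C4b is on chromosome 17 (34728380 to 34743882, minus strand) within 169.9 kb of its copy C4a, C2 and Cfb, and C3 is on the same chromosome at 57203970 to 57228136 (minus strand). C5ar1 is on chromosome 7 (16246743 to 16259540, minus strand) and Cd59a on chromosome 2 (104095801 to 104115354, plus strand). No exon base of these 9 genes was shared with another annotated gene on either strand.

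RefSeq promoters (build GRCm38.p6, 250 bases before to 50 after the start that RefSeq annotates) were found for 7 of the 9 genes. Those of the 2 receptor genes, which were both higher in tMCAO, and of 2 neighbouring C1q genes, of which 1 was called, are shown. Capitals mark matches, on either strand, to GAGGAA (the core bound by PU.1, a myeloid factor), TGANTCA (AP-1), TTNNGNAA (C/EBP), TTCNNNGAA (STAT), a motif of NF-kB, and TATAAA, named the TATA box.
C3ar1 (chr6:122856108-122856407, minus strand): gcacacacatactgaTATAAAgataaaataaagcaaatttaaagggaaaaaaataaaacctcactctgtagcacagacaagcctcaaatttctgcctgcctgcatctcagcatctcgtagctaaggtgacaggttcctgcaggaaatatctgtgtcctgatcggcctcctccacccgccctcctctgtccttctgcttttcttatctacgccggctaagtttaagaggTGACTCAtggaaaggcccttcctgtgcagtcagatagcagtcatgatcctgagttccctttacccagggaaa
C5ar1 (chr7:16259289-16259588, minus strand): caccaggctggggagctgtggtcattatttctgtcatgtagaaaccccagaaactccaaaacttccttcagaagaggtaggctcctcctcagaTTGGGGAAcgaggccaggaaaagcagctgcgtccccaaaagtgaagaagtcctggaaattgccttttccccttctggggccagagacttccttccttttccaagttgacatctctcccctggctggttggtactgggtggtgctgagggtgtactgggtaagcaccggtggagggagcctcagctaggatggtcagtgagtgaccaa
C1qb (chr4:136886151-136886450, minus strand): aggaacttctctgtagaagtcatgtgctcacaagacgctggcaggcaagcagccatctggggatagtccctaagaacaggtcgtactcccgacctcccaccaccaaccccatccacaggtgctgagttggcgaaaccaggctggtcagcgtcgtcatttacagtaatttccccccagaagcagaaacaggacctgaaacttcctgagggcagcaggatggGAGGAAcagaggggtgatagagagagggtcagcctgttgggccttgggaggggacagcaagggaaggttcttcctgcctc
C1qc (chr4:136892865-136893164, minus strand): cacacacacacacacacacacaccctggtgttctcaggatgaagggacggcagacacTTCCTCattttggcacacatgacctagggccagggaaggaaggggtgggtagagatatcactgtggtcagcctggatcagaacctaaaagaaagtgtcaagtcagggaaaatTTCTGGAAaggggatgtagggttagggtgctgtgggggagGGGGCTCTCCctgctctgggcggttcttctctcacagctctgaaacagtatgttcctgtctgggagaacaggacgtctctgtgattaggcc
C3ar1 held 1 match to AP-1 and 1 to TATA, and C5ar1 1 to C/EBP. C1qb held 1 match to PU.1, and C1qc 1 each to PU.1, C/EBP and NF-kB. No match overlapped another in these windows. In GENCODE M21, C5ar1 and C1qc start further upstream than in RefSeq, at 16259540 and 136893065 on the minus strand. The C/EBP match of C5ar1 and the C/EBP and NF-kB matches of C1qc therefore lie inside the GENCODE genes. Among 32851 RefSeq promoters, 28.3% held the PU.1 motif, 7.81% AP-1, 40.7% C/EBP, 8.30% STAT, 8.46% NF-kB and 13.6% TATA. The 2 receptor genes had no motif of this set in common, and a match describes the letters of a window only.

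Levels per gene length spanned a wide range. In Sham the order was C1qb (36.6 FPKM), C1qa (36.4), C1qc (15.96), C4b (5.42), Cd59a (3.47), C1ra (0.694), C3ar1 (0.529), C5ar1 (0.393) and C3 (0.237). C1qb and C1qa overlapped between libraries, as did C1ra with C3ar1 and C3ar1 with C5ar1, while the other neighbours in this order did not overlap. In tMCAO C1qb stood above C1qa in every library and C5ar1 moved from the eighth to the fifth place, where it overlapped Cd59a.

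**Figure D2:**
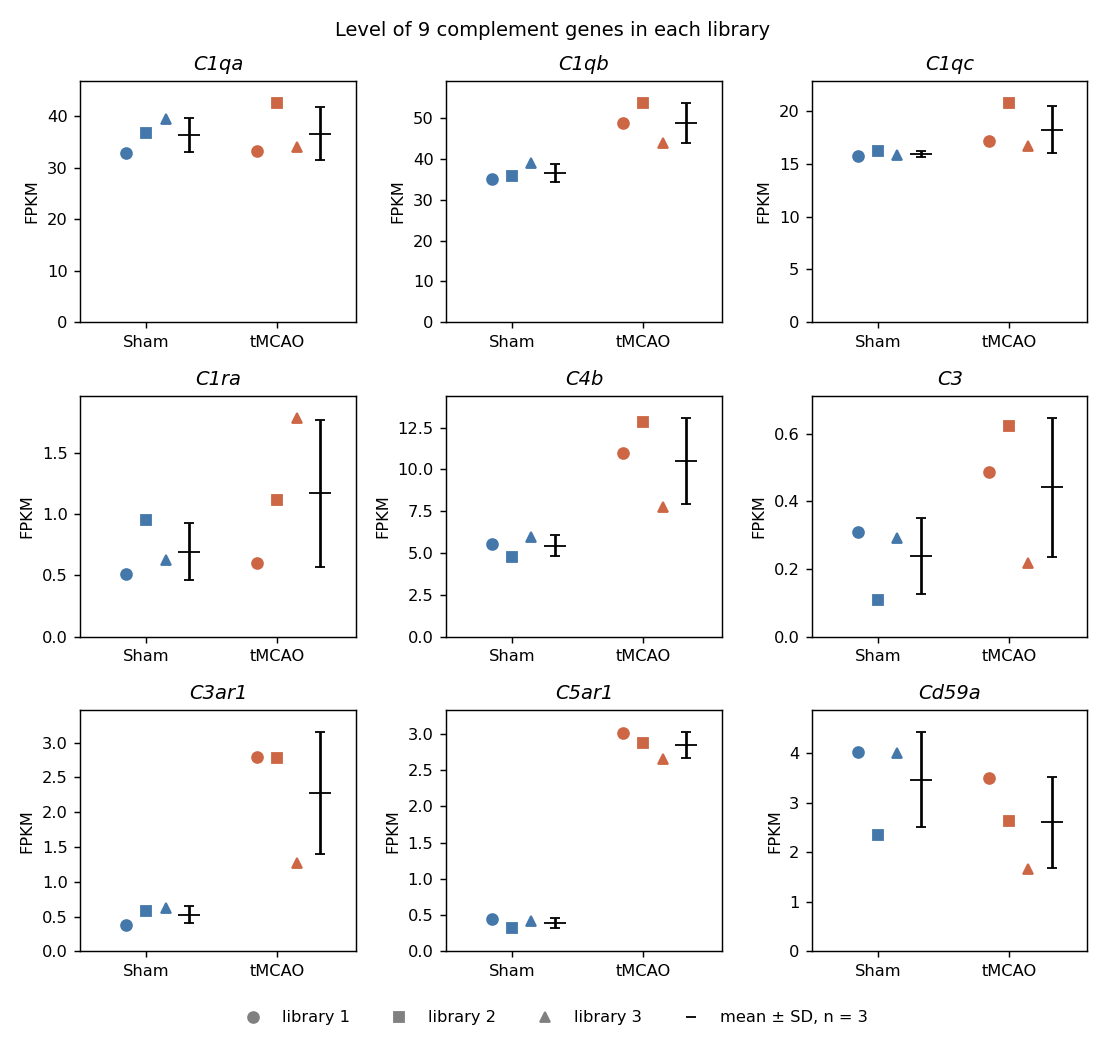
FPKM of the 9 genes in each library (Sham blue, tMCAO orange, 1 symbol per library number) with the mean and SD of 3 libraries in black. C5ar1, C3ar1, C4b, C1qb and C1qc are higher in every tMCAO library than in every Sham library, and the groups overlap for C1qa, C1ra, C3 and Cd59a.

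Of the 9 genes, 8 had a mean of at least 0.5 FPKM over the 6 libraries and were tested with limma on log2(FPKM + 1). After tMCAO 4 of them rose (C5ar1, C3ar1, C4b and C1qb), none fell, and 4 did not pass (C1qa, C1qc, C1ra, Cd59a), with adjusted p below 0.05 as the threshold. Over all 17561 tested genes 8.93% were higher, 7.28% were lower and 16.2% passed in either direction (1569 higher and 1278 lower, or 1048 and 1584 with libraries rescaled to an equal sum). The median log2 fold change was 0.37 over the 8 genes and 0.00 over all tested genes. In 5 of the 8 (C1qb, C1qc, C4b, C3ar1, C5ar1) every tMCAO library was above every Sham library, and in none below, where 23.1% and 20.3% of all tested genes did so. C5ar1 reached a mean of 0.5 FPKM only through its tMCAO libraries, so the count is not independent of that filter. Without the filter all 9 could be tested, and the same 4 passed, against 6.97% of 22647 genes that were higher. A change in bulk tissue can come from the number of cells of a type or from RNA per cell, and these cannot be told apart here.

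The receptor genes changed most. C5ar1, which encodes the receptor of the chemoattractant C5a, was at 0.444, 0.320 and 0.416 FPKM in Sham 1, 2 and 3 and at 3.01, 2.87 and 2.66 FPKM in tMCAO 1, 2 and 3. The 3 tMCAO libraries were close together, and the lowest of them was far above the highest Sham library. Its mean was 0.393 ± 0.0648 FPKM in Sham and 2.85 ± 0.177 FPKM in tMCAO (SD, n = 3 per group), a ratio of 7.24, with 128 reads in Sham and 1309 in tMCAO. On the log2(FPKM + 1) scale, which understates changes of low genes, the fold change was 1.47 (SE 0.08, limma adjusted p = 0.0020). It was 2.59 with a pseudocount of 0.1 and 2.84 with voom on recovered reads. Only 0.421% of tested genes had a larger rise, and among the 4 called genes C5ar1 alone kept its call with each library left out in turn (adjusted p up to 0.0172).

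C3ar1, the receptor gene of C3a, rose less evenly. It was at 0.383, 0.585 and 0.618 FPKM in Sham and at 2.79, 2.77 and 1.27 FPKM in tMCAO. All tMCAO libraries were above Sham, and tMCAO 3 was the lowest of the 3. The group means were 0.529 ± 0.127 and 2.28 ± 0.875 FPKM (SD, n = 3 each), from 291 and 1732 reads. On the log2 scale C3ar1 rose by 1.06 with an SE of 0.21 (limma adjusted p = 0.023). The call was lost without any 1 of Sham 1, 2 or 3 or tMCAO 1 or 2 (adjusted p 0.0534 to 0.0867). Without Sham 2 and tMCAO 3 together the log2 fold change was 1.34 (adjusted p = 0.0093).

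The 2 receptor genes were compared within each library. The ratio of C5ar1 to C3ar1 was 1.16, 0.548 and 0.673 in Sham and 1.08, 1.04 and 2.10 in tMCAO, so the groups overlapped. The difference C5ar1 minus C3ar1 on the log2(FPKM + 1) scale was -0.13 ± 0.17 in Sham and 0.27 ± 0.37 in tMCAO, and this shift of 0.40 gave p = 0.20 in an exact two-sided permutation test. With 3 libraries per group this test cannot go below 0.10, and 8 pairs were compared, with Benjamini-Hochberg adjusted p of 0.133 to 0.2.

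Among the components within the 9 genes, C4b rose most on the log2(FPKM + 1) scale. C4b encodes C4, the substrate of C1s. It was at 5.57, 4.74 and 5.97 FPKM in Sham and at 10.96, 12.8 and 7.73 FPKM in tMCAO. The groups did not overlap, and the lowest value of each group was that of Sham 2 and tMCAO 3. Means were 5.42 ± 0.629 FPKM in Sham and 10.5 ± 2.59 FPKM in tMCAO (SD, n = 3 each). The rise was 0.82 on the log2 scale with an SE of 0.17 (limma adjusted p = 0.027). This call was also lost without any 1 of Sham 1, 2 or 3 or tMCAO 1 or 2 (adjusted p 0.0529 to 0.0911), and without Sham 2 and tMCAO 3 together the fold change was 0.93 (adjusted p = 0.014).

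C4b has a close copy, C4a, and 34.6% of the 50-base words in its transcripts also occur in transcripts of C4a, so reads could be shared. C4a was at 0.421, 0.437 and 0.323 FPKM in Sham and at 0.529, 0.369 and 0.345 FPKM in tMCAO. The groups of C4a overlapped, and C4a made up 6.77% of the summed level of the pair in Sham and 3.79% in tMCAO.

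Of the 3 chains of C1q, which assemble in equal numbers, C1qb was called and C1qa and C1qc were not. C1qb was at 35.1, 35.7 and 39.0 FPKM in Sham and at 49.0, 53.8 and 44.0 FPKM in tMCAO. All tMCAO libraries were above all Sham libraries, with means of 36.6 ± 2.10 and 48.9 ± 4.89 FPKM (SD, n = 3 each). The log2 fold change was 0.40 (SE 0.09, limma adjusted p = 0.032). The call was lost with libraries rescaled to an equal sum (0.33, adjusted p = 0.063), with quantile normalization (0.34, 0.0687), with voom on recovered reads (0.40, 0.0543) and without any 1 library other than tMCAO 3 (adjusted p 0.0617 to 0.118).

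C1qa was at 32.9, 36.8 and 39.5 FPKM in Sham and at 33.3, 42.6 and 34.0 FPKM in tMCAO. The groups overlapped, with means of 36.4 ± 3.29 and 36.6 ± 5.17 FPKM (SD, n = 3 per group). The log2 difference was 0.00 with a 95% interval of -0.27 to 0.28 (limma adjusted p = 0.98), and its sign changed between scalings. C1qc was at 15.7, 16.3 and 15.9 FPKM in Sham and at 17.2, 20.8 and 16.7 FPKM in tMCAO, with no overlap. Its log2 difference was 0.18 (95% interval -0.04 to 0.39, limma adjusted p = 0.21), and it passed with library weights (0.29, adjusted p = 0.0262), under which 15.3% of all tested genes were higher.

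Ratios within a library do not depend on its scaling. The ratio of C1qb to C1qa was 1.06, 0.971 and 0.988 in Sham and 1.47, 1.26 and 1.29 in tMCAO. That of C1qc to C1qa was 0.478, 0.441 and 0.403 in Sham and 0.515, 0.488 and 0.493 in tMCAO. Both ratios were higher in each tMCAO library, though the second by little. The log2 difference C1qa minus C1qb moved by -0.40 and C1qa minus C1qc by -0.17 between the groups, each with p = 0.10 in an exact permutation test (adjusted p = 0.133 over 8 pairs), the smallest that 3 against 3 libraries allow, so the chains were not shown to differ at 0.05. None of the 50-base words in transcripts of C1qa, C1qb or C1qc occurs in another gene, and the exon lengths were 1040, 1088 and 1931 bases.

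**Figure D3:**
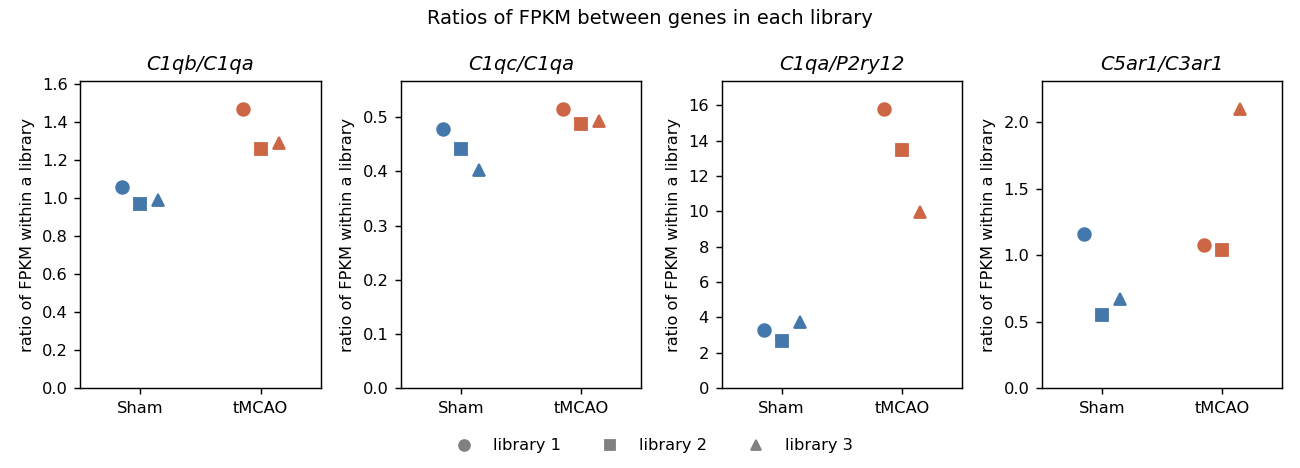
Ratio of FPKM between 2 genes in each library (no unit), for 4 pairs, with Sham in blue and tMCAO in orange. C1qb/C1qa is at 0.971 to 1.06 in Sham and 1.26 to 1.47 in tMCAO, C1qa/P2ry12 is at 2.68 to 3.73 and 9.98 to 15.8, and C5ar1/C3ar1 overlaps.

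C1q genes were then set beside other genes of microglia. P2ry12, a purine receptor of surveying microglia, was at a lower level in each tMCAO library, and the ratio of C1qa to P2ry12 was 3.30, 2.68 and 3.73 in Sham and 15.8, 13.5 and 9.98 in tMCAO. The log2 difference C1qa minus P2ry12 moved by 1.68 (exact permutation p = 0.10, adjusted p = 0.133) with no overlap between groups. Against Csf1r, the growth factor receptor gene of microglia and macrophages, C1qa moved by 0.21 with overlapping groups (exact permutation p = 0.20, adjusted p = 0.2), C3ar1 by 1.27 and C5ar1 by 1.67 (each exact permutation p = 0.10, adjusted p = 0.133). Csf1r itself had a log2 difference of -0.21 and is 1 of 8 general myeloid markers, which did not move as 1 group. Of the 7 that could be tested, Cd68 (0.87) and Fcer1g (0.58) rose and Aif1 (-0.55) fell, while Csf1r, Laptm5, Tyrobp (0.38) and Spi1 (0.47) did not pass. The sum of the 8 was 47.5 to 51.8 FPKM in Sham and 53.4 to 69.8 FPKM in tMCAO, so the shifts against Csf1r hold for that reference gene. Of 10 homeostatic microglial markers 7 fell and none rose, where 7.28% of all tested genes were lower and 8.93% higher. Their summed level was 95.9 to 112 FPKM in Sham and 55.7 to 72.7 FPKM in tMCAO.

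Markers of other cell types were read beside these genes. The summed level of 10 monocyte and macrophage markers, led by Mrc1 and Lyve1, was 1.495 to 2.67 FPKM in Sham and 4.64 to 5.99 FPKM in tMCAO. Of the 10, 4 could be tested and 1 was called higher (Lyve1, limma adjusted p = 0.032), though Lyve1 reached the filter only through tMCAO, as did F13a1. The monocyte marker Ccr2 was at means of 0.0545 and 0.0697 FPKM with overlapping groups, Ms4a7 had the lower mean in tMCAO, and none of the 10 was at 0 throughout a group. The 8 neutrophil markers, led by S100a9, summed to 2.09 to 2.82 FPKM in Sham and to 33.5, 5.30 and 3.69 FPKM in tMCAO, with 3 tested, none called and 2 at 0 in all Sham libraries. Most of the Sham sum was Csf3r, which was at a mean of 2.17 FPKM in Sham and 1.45 FPKM in tMCAO. C5ar1 ranged only from 2.66 to 3.01 FPKM over the tMCAO libraries, and without tMCAO 1 its log2 fold change was 1.44 (adjusted p = 0.0083). The 8 markers of reactive astrocytes summed to 53.9 to 88.1 FPKM in Sham and 178 to 356 FPKM in tMCAO. Of these 7 of 8 were called higher, where 8.93% of all tested genes were higher, and Osmr and Steap4 reached the filter only through tMCAO. The part of these marker levels in the changes of C5ar1, C3ar1, C4b and C1qb was not tested.

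C1ra, C3 and Cd59a varied with the libraries that stood apart. C1ra, the gene of the protease C1r, was at 0.510, 0.950 and 0.622 FPKM in Sham and at 0.598, 1.12 and 1.79 FPKM in tMCAO. The groups overlapped, and Sham 2 and tMCAO 3 were the highest of their groups. The log2 difference was 0.33 (95% interval -0.16 to 0.82, limma adjusted p = 0.29) and was 0.23 without these 2 libraries (adjusted p = 0.33). Its reads are uncertain, since 48.0% of its 50-base words also occur in the copy C1rb and 50.8% in any other gene. C1rb had 3 reads in Sham and 40 in tMCAO, of which 27 were in tMCAO 3, against 262 and 635 reads of C1ra.

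The kinship of the 2 genes extends to the RefSeq windows around their starts. A stretch of 149 bases could be aligned between the windows of C1ra and C1rb with 135 identical bases (90.6%). It runs to the last base of the C1ra window and begins at the first base of the C1rb window. The window edges thus limit its length, and its position relative to the RefSeq start differs between the genes. In C1ra the whole stretch lies inside the GENCODE gene. It is shown with the differing bases in capitals.
C1ra (chr6:124512522-124512670, plus strand): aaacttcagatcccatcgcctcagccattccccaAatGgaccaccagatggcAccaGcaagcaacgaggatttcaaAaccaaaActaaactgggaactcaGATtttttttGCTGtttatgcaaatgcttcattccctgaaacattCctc
C1rb (chr6:124570180-124570328, plus strand): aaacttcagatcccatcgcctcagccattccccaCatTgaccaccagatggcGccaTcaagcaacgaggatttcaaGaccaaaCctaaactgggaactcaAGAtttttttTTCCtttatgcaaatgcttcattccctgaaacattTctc

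C3, the central component that all routes of activation share, was low. It was at 0.311, 0.108 and 0.293 FPKM in Sham (63, 23 and 69 reads) and at 0.486, 0.621 and 0.217 FPKM in tMCAO (143, 187 and 71 reads). The groups overlapped, with Sham 2 and tMCAO 3 the lowest of each. Its mean of 0.237 ± 0.112 and 0.442 ± 0.206 FPKM (SD, n = 3 per group) lay under the filter, and without a filter the log2 difference was 0.21 (95% interval -0.07 to 0.49, limma adjusted p = 0.25). Without those libraries both tMCAO values lay above both Sham values, with no test. The log2 difference C4b minus C3 moved by 0.61 (exact permutation p = 0.10) with a pseudocount of 1, but by 0.25 (p = 0.40) with one of 0.1, and the ratio of mean FPKM in tMCAO to Sham was 1.94 for C4b and 1.86 for C3. Hc, the gene of C5 and so the source of the C5a that C5ar1 binds, had 92 reads in Sham and 85 in tMCAO (0.115 ± 0.0365 and 0.0760 ± 0.0336 FPKM). It was named with its values already known.

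Cd59a, which encodes the inhibitor of the membrane attack complex, was at 4.03, 2.35 and 4.01 FPKM in Sham and at 3.51, 2.64 and 1.66 FPKM in tMCAO. Sham 2 lay below 2 of the tMCAO libraries, and tMCAO 3 was the lowest of the 6. The log2 difference was -0.32 (95% interval -0.87 to 0.24, limma adjusted p = 0.36) and was -0.31 without Sham 2 and tMCAO 3 (adjusted p = 0.15). The copy Cd59b, which shares 3.9% of the 50-base words of Cd59a, was at 0.748 ± 0.112 and 0.494 ± 0.119 FPKM (SD, n = 3 per group, limma adjusted p = 0.14), with every tMCAO library below every Sham library.

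The authors' deposited table gives its own comparison of the same libraries, with fold changes as Sham over tMCAO, so that a negative value means higher in tMCAO. In the authors' deposited table the log2 fold change was -2.86 for C5ar1 (adjusted p 2.5e-35), -2.10 for C3ar1 (2.5e-09), -0.95 for C4b (2.8e-05) and -0.42 for C1qb (0.0082). The authors' deposited table has no adjusted p below 0.05 for C1qa (0.98), C1qc (0.32), C1ra (0.16), C3 (0.16) or Cd59a (0.36). Of the 22647 genes in the authors' deposited table, 10.8% were higher and 9.41% lower in tMCAO. The same 4 genes were thus called by both tests on the same data.

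The wider pathway was read from a list of 57 complement genes in 7 roles, which includes the 9. Of these 33 could be tested, 7 rose, 2 fell and 24 did not pass, with a median log2 fold change of 0.09 against 0.00 over all tested genes. Without the 9 genes the list had 3 higher, 2 lower and 20 not passing of 25 tested, where 8.93% and 7.28% of all tested genes were higher and lower. Of the 24 genes not tested all had a mean under 0.5 FPKM.

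Receptors had 4 of 5 tested genes higher, where 8.93% of all tested genes were higher. Of the 9 receptor genes listed, 4 had a mean under 0.5 FPKM and were not tested, and C5ar1 reached the filter only through tMCAO. Beside C3ar1 and C5ar1 the genes called higher were Cd93 and Itgb2. Cd93, a gene of endothelium and myeloid cells, was placed among the receptors in this list, and Itgb2 encodes the beta chain of complement receptor 3. Cd93 was at 1.17, 1.31 and 1.13 FPKM in Sham and 3.15, 3.52 and 1.90 FPKM in tMCAO (limma adjusted p = 0.028), with no overlap. That call was lost in 6 of 18 alternatives (adjusted p up to 0.106), 5 of them with 1 library left out. Itgb2 was at 1.64 ± 0.209 and 2.65 ± 0.532 FPKM (SD, n = 3 per group, limma adjusted p = 0.0495), and its call was lost in 13 of 18 alternatives (adjusted p up to 0.156). Itgam, the alpha chain of complement receptor 3, was read from the row with the higher mean FPKM of its 2 rows and was not called. It was at 0.756 ± 0.0633 and 0.654 ± 0.305 FPKM with overlapping groups (limma adjusted p = 0.64). As 68.7% of its exon length is shared with Gm49368, its reads are uncertain.

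Among the classical components no gene beyond C1qb and C4b passed, with 2 of 7 tested genes higher, where 8.93% of all tested genes were higher. C1s1, the protease partner of C1r, was at 0.419 ± 0.0756 and 0.667 ± 0.301 FPKM (SD, n = 3 per group, limma adjusted p = 0.29), and like C1ra it was highest in tMCAO 3, at 1.002 FPKM; 18.4% of its exon length lies opposite Gm16567, so its reads are uncertain. C2, with 46.9% of its exon length shared with Gm20547 and so with uncertain reads, was at 0.540 ± 0.0850 and 0.632 ± 0.110 FPKM (limma adjusted p = 0.55). In the lectin route Colec11, a soluble collectin, rose, as 1 of 4 tested genes (limma adjusted p = 0.015). Its means were 0.233 ± 0.0634 and 0.861 ± 0.134 FPKM (SD, n = 3 each) from 48 and 250 reads, and it too reached the filter only through tMCAO. This call was lost in 3 of 17 alternatives, among them without Sham 1 and without Sham 3 (adjusted p up to 0.0737). The single tested genes of the alternative and terminal routes did not pass. Cfp, which stabilises the alternative convertase, was at 7.72 ± 0.448 and 6.68 ± 0.776 FPKM (limma adjusted p = 0.20), and C8g at 1.78 ± 0.178 and 1.99 ± 0.499 FPKM (limma adjusted p = 0.66).

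Regulators at the membrane included 2 genes that fell and none that rose among 9 tested, where 7.28% of all tested genes were lower and 8.93% higher. Csmd2 was at 5.34 ± 0.550 and 3.36 ± 0.0668 FPKM (SD, n = 3 per group, limma adjusted p = 0.016), and Csmd3 at 2.85 ± 0.108 and 2.03 ± 0.293 FPKM (adjusted p = 0.049). Both encode large brain proteins with repeated complement-control modules, and the calls were lost in 4 and 11 of 18 alternatives (adjusted p up to 0.0692 and 0.16). Csmd1, of the same family, did not pass. It was at 5.02 ± 0.147 and 4.85 ± 1.86 FPKM with overlapping groups (limma adjusted p = 0.79). Of 6 soluble regulators none passed. Clu, clusterin, was at 209 ± 12.6 and 264 ± 39.0 FPKM (limma adjusted p = 0.12), and passed as higher in 3 of 18 alternatives, including without Sham 2 and tMCAO 3 (adjusted p = 0.0387). Vtn, vitronectin, was at 27.6 ± 0.753 and 21.6 ± 3.39 FPKM (limma adjusted p = 0.077), with every tMCAO library below every Sham library.

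**Figure D4:**
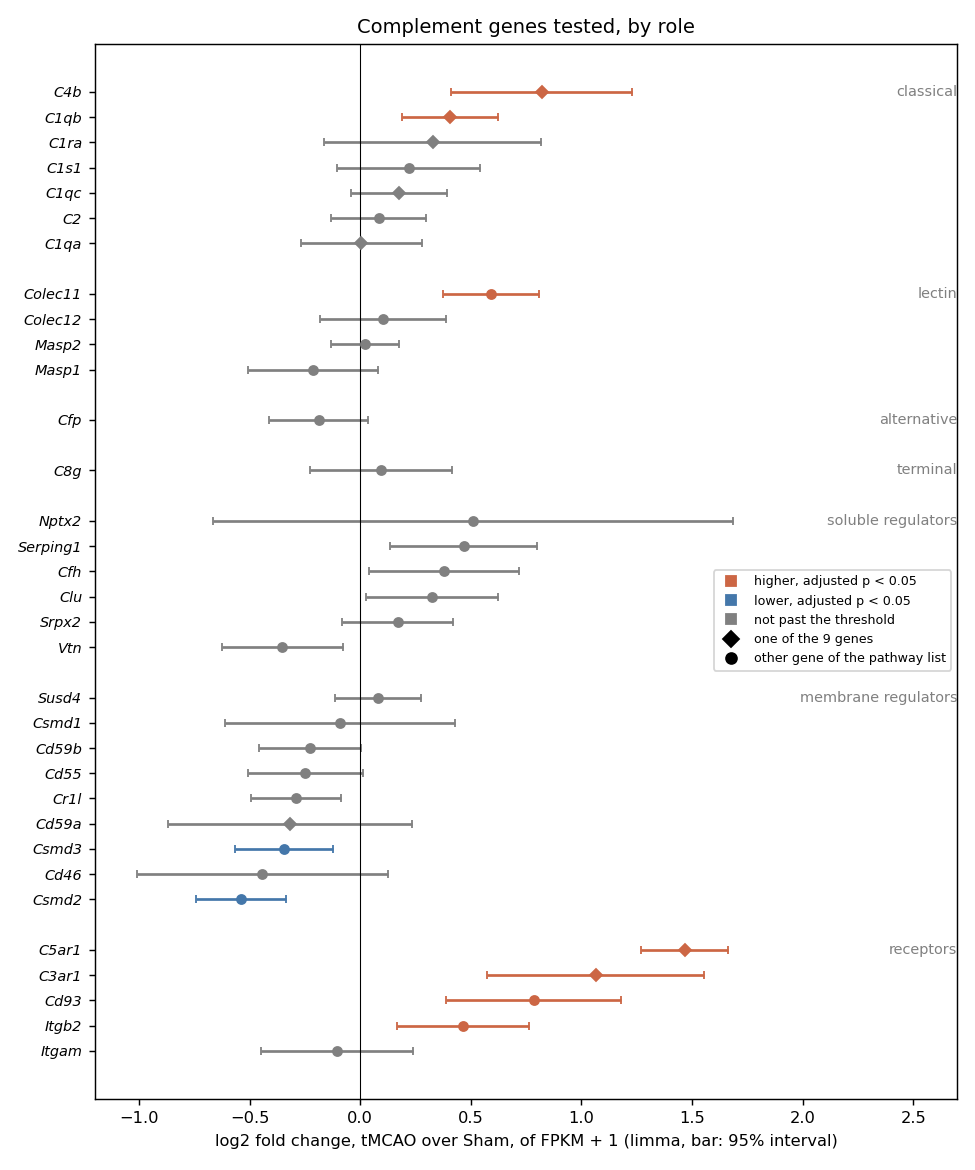
Log2 fold change (tMCAO over Sham, of FPKM + 1) with its 95% interval from limma for 33 tested complement genes by role, with diamonds for the 8 of the 9 genes that were tested. Orange marks 7 genes called higher and blue 2 called lower, where 8.93% and 7.28% of all tested genes were higher and lower. Of 5 tested receptor genes 4 are orange.

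For C5ar1, C4b and C1qa the genes with the most similar pattern were looked up, as the smallest root mean square difference of centred log2(FPKM + 1) over the 6 libraries. For C5ar1 they were Tma16 (0.064), Sat1 (0.075) and Osmr (0.11), of which Osmr, the oncostatin M receptor gene, was at 0.454 ± 0.0549 and 3.10 ± 0.592 FPKM (SD, n = 3 per group). For C4b they were Angpt2 (0.046), Procr (0.059) and Smox (0.060), and for C1qa Man1a (0.041), Fyb (0.051) and Zfp449 (0.054). With so few libraries such nearness only describes these samples.

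The calls differed in how far they depended on single libraries. With 1 library left out, 1 of the 8 genes passed in 5 of the 6 cases, and that gene was C5ar1. Over all genes the number called also fell, to between 75 (without Sham 3) and 2183 (without tMCAO 2) of 17561 in those 5 cases, against 2847. Without tMCAO 3, C5ar1, C3ar1, C4b and C1qb passed, where 12.4% of all tested genes were higher. They also passed without Sham 2 and tMCAO 3 together, where 6.99% were higher. At a mean of at least 2 FPKM only 5 of the 9 genes could be tested, and C4b and C1qb passed, where 10.7% of 12851 genes were higher.

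**Figure D5:**
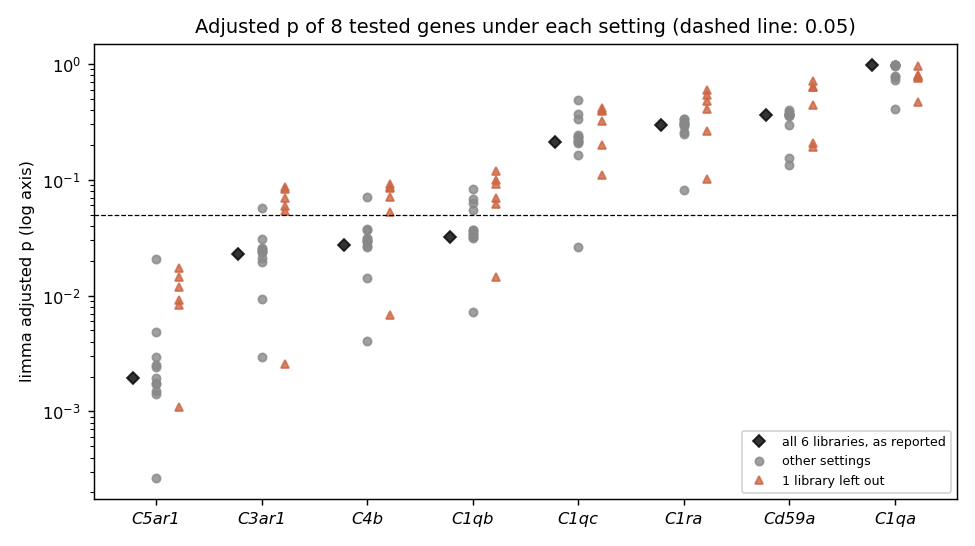
Limma adjusted p (log axis) of the 8 tested genes with all 6 libraries (black), under 12 other settings at most (grey) and with 1 library left out (orange), with the threshold as a dashed line. C5ar1 stays below the line throughout. C3ar1 and C4b rise above it with a library left out and in 1 other setting, the one with column numbers as a block, and C1qb also under 3 further settings.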

How the data were processed

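The authors deposited gene-level FPKM of 6 poly(A)-selected libraries in a table of 53465 genes and in a table of 22647 compared genes (largest difference in FPKM 1.8e-12). Besides FPKM, the latter holds the authors' log2 fold change, p-value and adjusted p-value (the sources used here name no test). Per the submitters' processing notes, reads were placed on mm10. No aligner, counter or strand setting is named in the sources used here. Sham columns were matched by title, and tMCAO columns name only their group. FPKM divided by the step of 1 read gave whole numbers (tolerance 0.0001, wider for large counts) for 100% of 36452 genes above 0. Of these, 94.1% were whole at the exon length of GENCODE M21. The division gave reads per gene, where a unit may be a read or a pair. For the other genes a length was searched for at which the values came out whole. That length is an estimate, and the 100% is partly fixed by this search.

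Groups were compared with limma (version 3.58.1, R version 4.3.3) as log2(FPKM + 1) over compared genes with a mean of at least 0.5 FPKM (lmFit, eBayes with trend, two-sided, Benjamini-Hochberg over 17561 genes, threshold 0.05). The fit was also run on simulated data with independent noise for each value. These data held no differences in cell content such as those of Sham 2, tMCAO 1 and tMCAO 3, so the run does not cover them. Voom used the totals of recovered reads as library sizes. Exact permutation tests used 20 assignments. The 9 genes, the pathway list and the marker lists were chosen with earlier results of these data known. By plan, named genes were the 9, up to 4 further called genes per role or else the 2 with the highest FPKM, and near copies. The plan also held Csf1r and P2ry12, the 3 nearest genes by pattern, and at most 2 per marker list, those with the highest FPKM. Other markers, such as Prox1, Cd68, Ccr2 and Csf3r, were named beyond this plan with their values known, as were Hc, Itgam and Csmd1. Alternatives numbered 18, 1 of them added after seeing the data. 1 marker of the striatal list is not reported here and was left out of its sum.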

Additional observations from a re-analysis of the deposited data

How the results depend on the processing

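Of 18 alternatives, several changed counts of calls. At a mean of at least 2 FPKM, where C3ar1, C5ar1 and C1ra are no longer tested, 2 of 5 tested complement genes of the 9 and 4 of 21 tested pathway genes passed (1377 of 12851 genes higher and 906 lower). With library weights 4913 genes and 14 pathway genes passed, against 2847 and 9. Rescaling to an equal sum gave 1048 higher and 1584 lower genes, against 1569 and 1278, with a median log2 shift of all genes of -0.057. With 1 library left out, 75 to 3896 genes, 1 to 4 of the 9 genes and 1 to 12 pathway genes passed, with fewer samples in each fit.

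Over these leave-one-out fits the log2 fold change was 0.94 to 1.31 for C3ar1, 0.67 to 1.01 for C4b and 0.34 to 0.48 for C1qb. C1qa changed sign around 0, from -0.11 to 0.066 with a library left out, and was -0.067 with equal sums, -0.0043 with the median ratio, -0.057 with quantile normalization and -0.012 with voom. C1qb lost its call at 0.33 (equal sums), 0.34 (quantile normalization) and 0.40 (voom on recovered reads), and C1qc gained one at 0.29 with library weights; the cause was not tested. C8g turned to -0.038 with library weights and ran from -0.020 (without tMCAO 3) to 0.22 with a library left out. The 8 differences between genes kept their direction with a pseudocount of 0.1 and with each library left out. The fits on the table of all genes, without trend and with the median ratio gave the same calls for the 8 genes. The median ratio factors were only 0.9983 to 1.013, and the table of all genes had 17832 tested genes against 17561. Both fits thus differed little from the main one by construction. The numbers 1 to 3 in the column names are not said to mark pairs, and deviations of same-numbered libraries from their group means correlated at 0.314, -0.342 and -0.323, so not every library went with its number. A fit with these numbers as a replicate block, chosen after seeing the data, called 632 genes (364 higher and 268 lower), 1 of the 9 genes (C5ar1, adjusted p = 0.0206, limma) and 1 pathway gene. In that fit C3ar1 (1.06, adjusted p = 0.0574), C4b (0.82, 0.071) and C1qb (0.40, 0.0828) were not called. Depth limits C3, C1rb and Hc, with 155, 3 and 92 reads in Sham.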
